A study of Homo sapiens with 17 samples.

Results

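The respiratory chain was examined in RNA-seq of CHP-134, a human neuroblastoma cell line, grown in culture or as xenograft tumors. A gene was taken as a member by its symbol: the NDUFA, NDUFB, NDUFC, NDUFS and NDUFV genes of complex I, SDHA to SDHD of complex II, the UQCR genes of complex III, COX4 to COX8 of complex IV, the ATP5F1, ATP5M, ATP5P and ATP5IF genes of the ATP synthase, and the 13 protein genes of the mitochondrial genome. Of 60662 genes, 100 were members, 87 encoded in the nucleus and 13 in mitochondria, and 95 symbols of processed pseudogenes were dropped. The nuclear members comprised 36 genes of complex I, 4 of complex II, 9 of complex III, 18 of complex IV and 20 of complex V, while the mitochondrial genome supplied 7, 0, 1, 3 and 2 genes to these complexes. The gene counted as NDUFA4 in the symbols was placed with complex IV, where its protein is now assigned.

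The cultures received the vehicle DMSO or 2 µM ATRA (all-trans retinoic acid) for 1, 3 or 6 days, with 2 libraries in each of the 4 groups. The tumors came from CHP-134 cells labelled with luciferase and injected under the skin of female athymic nude mice of about 12 weeks of age, and were controls (5 tumors, untreated by their labels and given vehicle by the study's methods) or exposed to 13-cis retinoic acid (13-cis-RA) by oral gavage, with 25 mg/kg in each of 2 daily doses (4 tumors). Athymic nude mice lack T cells but keep other host cells, and at day 6 the cultures held the cells that had survived a drug that kills this line. Ribosomal RNA was depleted with 1 kit for the cells and another for the tumors, so that kit, host and growth conditions cannot be told apart between the systems. The study describes the replicates of its time course in these cells as independent, while the labels do not say how the cultures were grown, and p-values measure the spread between these libraries.

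Each culture library held 31607051 to 39422897 counts and each tumor library 17266558 to 29078889. All 9 markers of adrenergic neuroblastoma reported here, such as CHGA and MYCN, had counts in every group, and their summed level was 2916 to 2956 CPM (counts per 1000000 of the normalized library total) in DMSO, 1901 to 1910.2 after 6 days of ATRA, 2391 to 3987 in control tumors and 3241 to 3441 in treated tumors. The list did not move as one at 6 days: MYCN went from 1964 CPM on average to 981, and GATA3, HAND2 and ISL1 were lower too, whereas CHGA went from 251 to 386 and the other 4 were also higher. Control tumor 1 stood apart in skeletal muscle markers, with a summed level of 131 CPM against 1.10 to 4.68 in the other control tumors, and control tumor 4 in fibroblast markers, at 117 CPM. The part of host or muscle RNA in the member genes was not tested.

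Respiratory chain complexes I, III and IV pump protons across the inner mitochondrial membrane while they pass electrons from NADH and succinate to oxygen, complex II feeds in electrons from succinate without pumping, and complex V uses the proton gradient to make ATP. Complexes I, III, IV and V are built from proteins of both genomes, whereas complex II is wholly nuclear. Mitochondrial DNA is copied into long RNAs from each of its strands, which are then cut into single messages. The heavy-strand transcript carries 12 of the 13 protein genes and the light-strand transcript carries MT-ND6 alone. The 12 thus share transcription and can differ in level among themselves through processing and stability. This does not hold between them and MT-ND6, which is copied with the other strand. Nuclear subunit genes each have a promoter of their own.

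Neighbouring mitochondrial genes share bases, which limits how their reads can be told apart. The longer overlaps are shown because the bases within them do not tell the genes apart, whereas a read that reaches beyond them also covers unshared bases. Capitals mark the bases that belong to both genes, read 5′ to 3′ on the heavy-strand message in hg38. MT-ATP8 and MT-ATP6 overlap by 46 bases at chrM:8527-8572, within chrM:8517-8582 as printed, and MT-ND4L and MT-ND4 by 7 bases at chrM:10760-10766, within chrM:10750-10776. MT-ATP6 and MT-CO3 share a single base, chrM:9207, which is not shown.

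MT-ATP8/MT-ATP6: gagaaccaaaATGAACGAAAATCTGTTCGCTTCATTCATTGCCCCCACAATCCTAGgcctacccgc
MT-ND4L/MT-ND4: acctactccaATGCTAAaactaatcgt

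MT-CYB (chrM:14747-15887) and MT-ND6 (chrM:14149-14673), on which much of what follows turns, lie 73 bases apart on opposite strands and share no base with each other or with MT-ND5.

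After 6 days of ATRA, mitochondrial messages made up more of the respiratory chain RNA than in DMSO. Mitochondrial members took 2.17% and 2.11% of all counts in the DMSO libraries and 3.27% and 3.26% after 6 days, while nuclear members took 0.604% and 0.606% in DMSO and 0.523% and 0.528% after 6 days. Both measures separated the groups fully. The log2 ratio of mitochondrial to nuclear counts within a library, which no scaling between libraries can alter, was 1.85 and 1.80 in DMSO, 2.06 and 2.05 on day 1, 1.77 and 1.80 on day 3 and 2.64 and 2.63 on day 6. The mean ratio thus lay 0.23 above DMSO after 1 day (pooled SD 0.03, n = 2 in each group), 0.81 above it after 6 days, which is 1.75-fold, and differed from it by -0.04 after 3 days. When the ratio was taken between the median CPM of members in place of summed counts, the 3-day difference turned from -0.04 to 0.18. The ratio is a score over chosen genes and was given no test. In bulk RNA, fewer cells of a type and less RNA per cell cannot be told apart.

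Tumors had more scattered ratios, higher than those of DMSO, 1-day and 3-day cells, with kit and growth conditions confounded. Their values lay on both sides of those of the 6-day cells. The log2 ratio was 3.13, 2.50, 2.95, 3.40 and 2.85 in control tumors and 3.26, 2.52, 2.75 and 2.42 in tumors given 13-cis-RA. The treated range lay almost wholly inside the control range, and the difference of means of -0.23 was smaller than the pooled SD of 0.35. Mitochondrial members took 3.42% to 5.73% of the counts in control tumors and 3.09% to 5.05% in treated ones, and nuclear members 0.530% to 0.605% and 0.527% to 0.577%.

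**Figure D1:**
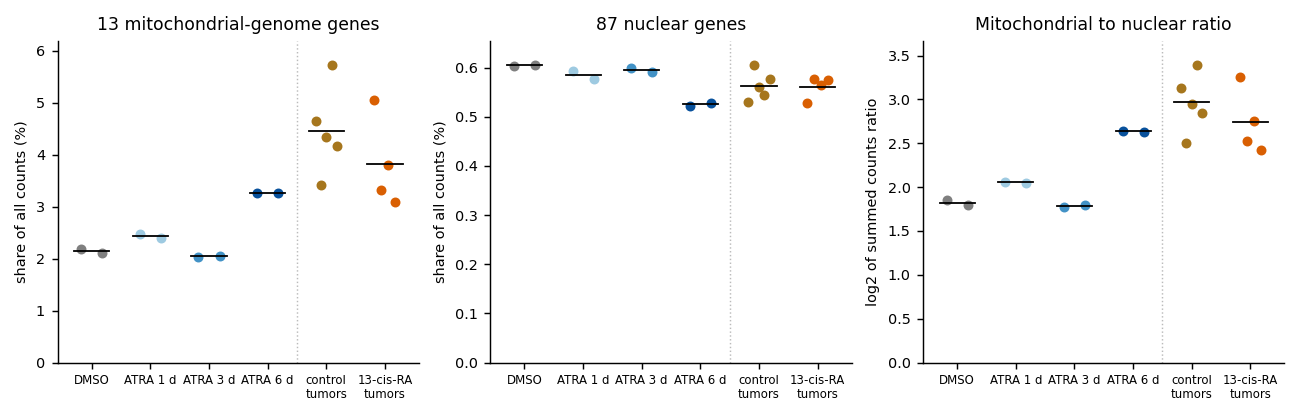
Share of all counts in mitochondrial-genome and in nuclear respiratory chain genes (percent) and the log2 ratio of both, 1 point per library in the 6 groups. Cells at 6 days stand at log2 ratios of 2.63 and 2.64 against 1.80 and 1.85 in DMSO, and both tumor groups spread over the same range.

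Individual genes were compared with edgeR's quasi-likelihood test fitted to all genes, and every adjusted p below is a Benjamini-Hochberg value from it, over 20237 genes in cells. A gene that passed had an adjusted p under 0.05, and fold changes are on the log2 scale with their standard error (SE). Of the 100 members, 95 had enough counts to be tested in cells and 96 in tumors. COX6A2 and COX7B2 had no counts in any library and COX8C had at most 5. These filters keep genes with counts in any group, so the members tested are not all members.

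MT-CYB, the only mitochondrial subunit of complex III and the protein that binds its haems b, changed most among the 13 mitochondrial genes at 6 days. It measured 960 and 933 CPM in DMSO, 1257 and 1176 on day 1, 1028 and 1029 on day 3 and 3266 and 3250 on day 6. Levels at 6 days lay well above every other culture library, and the rise was 3.44-fold (log2 1.78 ± 0.02, adjusted p = 2.89e-22). Per kilobase of message, MT-CYB moved from the ninth place among the 13 genes in DMSO, at 829.4 ± 16.4 CPM per kb (SD, n = 2), to the fourth at 6 days, at 2856 ± 9.55. MT-CO1, MT-CO3 and MT-CO2, the catalytic core of cytochrome c oxidase, held the first places in both groups. Nuclear copies of mitochondrial genes, summed, took at most 1.99% as many counts as the mitochondrial members in cells and at most 1.14% in tumors. Copies of MT-CYB held at most 165 counts in a cell library. The share was larger for MT-ND2 and MT-ATP6. In DMSO the copy MTND2P28 had 9438 and 7993 counts beside 59792 and 51080 for MT-ND2. At 6 days it had 9849 and 6539 beside 81009 and 86047. MTATP6P1 had 5625 and 4536 in DMSO beside 35382 and 30176 for MT-ATP6.

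MT-ND6, the complex I subunit on the light strand, went the other way. It measured 137 and 142 CPM in DMSO, 185 and 179 on day 1, 109 and 116 on day 3, and 80.9 and 71.1 on day 6. No 6-day library reached the level of any other culture, and the fall was 1.83-fold (log2 -0.87 ± 0.06, adjusted p = 1.76e-05). Its counts equalled 0.626% and 0.670% of the summed heavy-strand counts in DMSO and 0.254% and 0.222% at 6 days. In tumors this figure was 1.17% to 1.51% in controls and 0.981% to 1.33% after 13-cis-RA, with the kit difference named above. Counting by strand was not stated in the sources used here, and reads of MT-ND6 could in part be reads of the opposite strand.

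Most other heavy-strand genes rose by less at 6 days. MT-ND2, a membrane subunit of complex I, measured 1533 and 1498 CPM in DMSO and 2460 and 2529 at 6 days (log2 0.72 ± 0.02). MT-CO2 rose by 0.67 ± 0.09, MT-ND3 by 0.65 ± 0.09, MT-ND5 by 0.65 ± 0.03, MT-ND4 by 0.61 ± 0.03, MT-CO3 by 0.58 ± 0.05 and MT-ND4L by 0.56 ± 0.03. The smallest rises were those of MT-CO1 (0.34 ± 0.02), MT-ND1 (0.29 ± 0.02) and MT-ATP6 (0.28 ± 0.02), while MT-ATP8, a short subunit of the ATP synthase, had 0.07 ± 0.09 and an adjusted p of 0.477. In all, 11 of the 13 rose and 1 fell, with a median of 0.58, against 38.7% of all genes tested that rose and 36.4% that fell and a median of 0.04. MT-CYB alone exceeded 2-fold, a size reached by 18.8% of all genes upward and 12.3% downward.

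At 1 day, 10 of the 13 had already risen, with a median of 0.21, against 13.1% of all genes upward. MT-ND5 (0.39 ± 0.03), MT-ND6 (0.38 ± 0.06), MT-CYB (0.36 ± 0.02), MT-ND4L (0.35 ± 0.03), MT-ATP8 (0.34 ± 0.08, adjusted p = 0.0499) and MT-ND1 (0.30 ± 0.02) were highest. MT-CO2, MT-CO3 and MT-ND3, at 0.07, 0.03 and 0.08, did not pass. MT-ND6 was therefore higher than DMSO at 1 day and lower at 6 days. At 3 days MT-CYB was the 1 gene above DMSO (0.12 ± 0.02), and 6 had fallen: MT-ND6 by 0.31 ± 0.06, MT-ND1 by 0.21 ± 0.02, MT-ND2 by 0.19 ± 0.02, MT-ND4 by 0.17 ± 0.03, MT-ATP6 by 0.15 ± 0.02 and MT-ND5 by 0.10 ± 0.03. The 3-day median was -0.17, beside 21.9% of all genes that rose and 23.1% that fell.

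Between 3 and 6 days, 12 mitochondrial genes rose and MT-ND6 fell by 0.57 ± 0.07, beside 34.0% of all genes that rose and 34.1% that fell. MT-CYB rose by 1.66 ± 0.02, MT-ND2 by 0.91 ± 0.02, MT-ND3 by 0.91 ± 0.09 and MT-CO2 by 0.88 ± 0.09. The same 3-day libraries served here and in the comparison with DMSO. In a single fit over all 17 libraries, whose spread included that of the tumors, the counts of mitochondrial genes that rose were 0 at 1 day, 5 at 6 days against DMSO and 7 between 3 and 6 days, and MT-ND6 no longer passed.

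**Figure D2:**
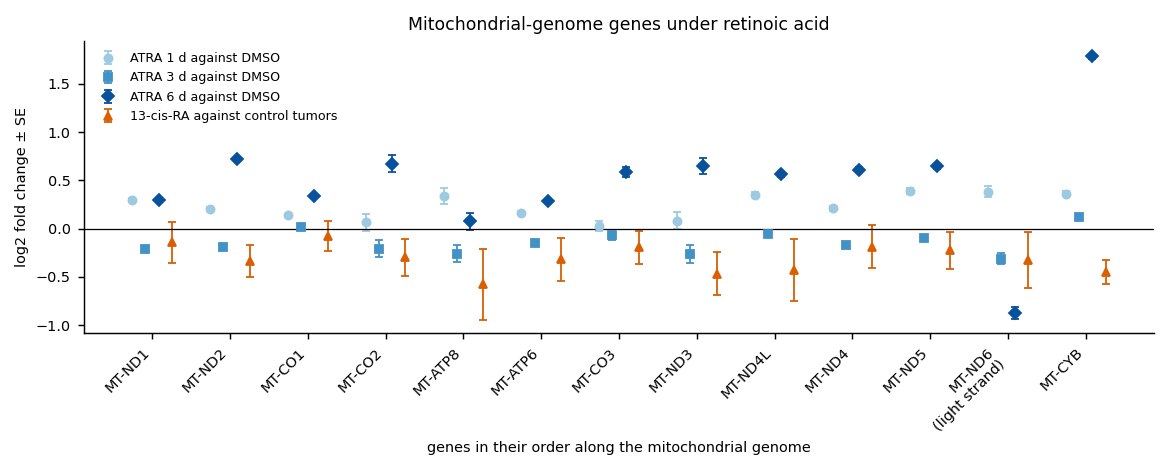
Log2 fold change ± SE of the 13 mitochondrial-genome genes in their order along the genome, for ATRA at 1, 3 and 6 days against DMSO cells and for 13-cis-RA against control tumors. MT-CYB stands at 1.78 and MT-ND6, on the light strand, at -0.87 at 6 days, next to each other on the map.

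Nuclear members moved mostly down in the cells at 6 days. Of 82 tested, 59 fell, 11 rose and 12 did not pass, beside 36.4% of all genes that fell and 38.7% that rose, with a median of -0.29 against 0.04 over all genes. Few changes were large: ATP5MC1, ATP5MGL and SDHD fell by over 2-fold and UQCRHL rose by as much. The ATP5MGL value rests on few counts, 22 and 16 in DMSO and 5 and 10 at 6 days. COX6B2, also among the 11 rises, was tested only because of its counts at 6 days, so its call there had to follow and is a description. At 1 day 18 had fallen and 2 had risen (median -0.06), beside 13.3% of all genes that fell, and at 3 days 24 had fallen and 7 had risen (median -0.05), beside 23.1% and 21.9% of all genes. Only ATP5MGL passed 2-fold at 3 days (-1.26 ± 0.52, adjusted p = 0.0458), where 2.43% of all genes fell by as much. It did not pass there without either DMSO library or without the first ATRA library, and it lies within the body of CYB5R3 on the same strand, from which its reads may not be separable. The 1-day count of 18 was 11 without DMSO library 2, 28 without ATRA library 1 and 9 without ATRA library 2, and the 3-day count of 24 was 13 without DMSO library 1.

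**Figure D3:**
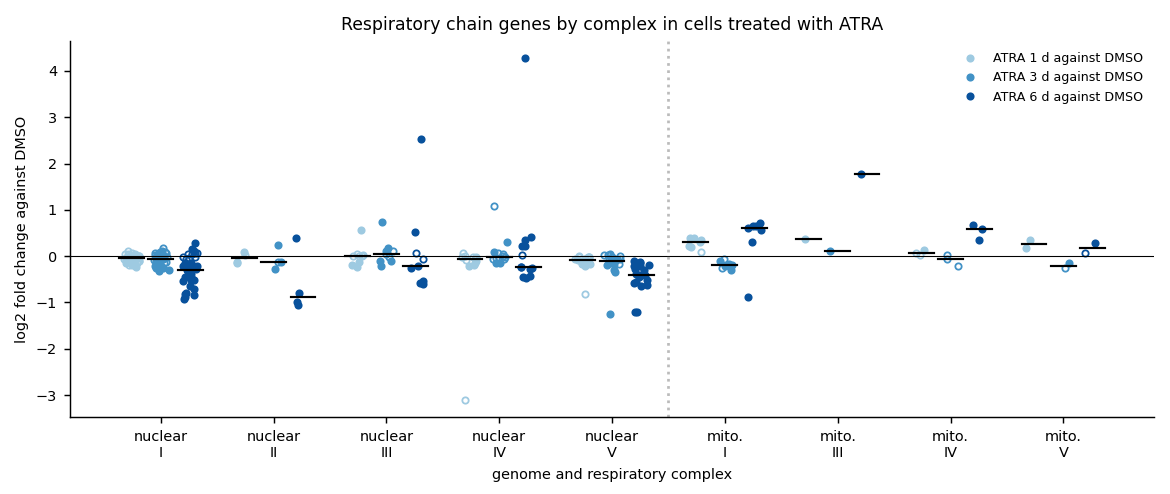
Log2 fold change against DMSO of each tested respiratory chain gene at 1, 3 and 6 days of ATRA, grouped by genome and complex, 1 point per gene with the median of each group. At 6 days the nuclear medians lie between -0.89 for complex II and -0.22 for complex III, and the mitochondrial ones between 0.18 and 1.78.

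Complex II, succinate dehydrogenase, links the tricarboxylic acid cycle to the chain and had the lowest median at 6 days, -0.89. SDHB, its iron-sulfur subunit, measured 74.2 and 72.1 CPM in DMSO, 76.5 and 72.7 on day 1, 65.4 and 68.8 on day 3 and 36.5 and 37.1 on day 6 (log2 -0.99 ± 0.04, adjusted p = 2.16e-22). SDHD, a membrane anchor, measured 36.4 and 36.3 CPM in DMSO and 17.3 and 17.7 at 6 days (-1.05 ± 0.06, adjusted p = 7.26e-19). SDHA, the flavoprotein that oxidises succinate, went from 102 and 108 CPM to 60.2 and 60.8 (-0.79 ± 0.03).

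SDHC, the other anchor, rose where its 3 partners fell. It measured 131 and 127 CPM in DMSO, 137 and 139.7 on day 1, 150.4 and 153 on day 3 and 169.8 and 171 on day 6 (0.40 ± 0.03, adjusted p = 3.99e-16). Its DMSO and 6-day libraries did not overlap, and it passed upward at 1 day as well (0.10 ± 0.03), which among nuclear members it shared with UQCRHL alone. SDHA was lower than DMSO at each time, by 0.16, 0.28 and 0.79 on the log2 scale.

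Promoter sequence upstream of the complex II genes that fell is shown because their decrease was among the largest of the nuclear members. NRF1 and ETS factors are known to bind promoters of nuclear respiratory genes. The letters GCGCATGC (NRF1), CCGGAAGT (ETS), AAGATGGC (YY1), TNAAGGTCA (estrogen-related receptors) and CACGTG (E-box) were searched on both strands in the 250 bases before each RefSeq start in GRCh38.p14, and matches are in capitals. SDHB holds an NRF1 match that begins 200 bases before its start, within chr1:17054033-17054282 on the minus strand. SDHD holds a pair of overlapping NRF1 matches, 110 and 108 bases before its start, and an ETS match at 78 bases. Exons of TIMM8B and of an unnamed gene lie in the SDHD window, and no match lay wholly within its longest stretch free of exons. Only the NRF1 pair with its flanking bases, chr11:112086753-112086782 (plus strand), is printed, and it may lie in an exon of a neighbour. SDHA holds none of the 5, and chr5:218154-218297 (plus strand), the part of its window outside neighbouring exons, is printed for contrast. SDHC had no entry.

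SDHB: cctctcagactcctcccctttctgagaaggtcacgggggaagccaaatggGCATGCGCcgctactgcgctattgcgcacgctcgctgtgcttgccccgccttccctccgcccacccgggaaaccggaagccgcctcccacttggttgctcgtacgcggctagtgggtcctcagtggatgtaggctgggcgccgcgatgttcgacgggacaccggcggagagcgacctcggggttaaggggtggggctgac
SDHD: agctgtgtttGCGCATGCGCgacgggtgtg
SDHA: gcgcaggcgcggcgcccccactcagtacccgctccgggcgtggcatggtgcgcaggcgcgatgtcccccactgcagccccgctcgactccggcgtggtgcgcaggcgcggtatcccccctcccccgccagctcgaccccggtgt

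Over the 69 nuclear members with an entry, NRF1 letters were present in 12 (17.4%), against 2.81% of 27305 promoters, and ETS letters in 14.5% against 3.64%. Among members with a promoter, 11 of 49 that fell at 6 days held the NRF1 letters, as did 0 of 7 that rose and 1 of 10 that did not pass. For ETS the numbers were 7 of 49, 1 of 7 and 2 of 10. YY1 letters were in 1.45% of the members and 1.37% of all promoters, those of estrogen-related receptors in 1.45% and 0.850%, and the E-box in 8.70% and 6.49%. These are descriptions of letters in a window and were not tested.

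Of complex V, the ATP synthase, all 20 nuclear genes tested fell at 6 days (median -0.41), beside 36.4% of all genes that fell. ATP5MF-PTCD1 shares exon bases with ATP5MF, and ATP5MGL had few counts, so these are not 20 separate falls. The c-ring that turns in the membrane is built from 1 protein encoded by 3 genes, which differ only in the part that is cut off on import. ATP5MC1 measured 87.4 and 88.6 CPM in DMSO, 82.2 and 80.4 on day 1, 69.4 and 69.2 on day 3 and 37.6 and 38.1 on day 6, a fall of 2.32-fold (-1.22 ± 0.04, adjusted p = 1.19e-26). ATP5MC3 went from 111 and 109 CPM to 71.7 and 69.8 (-0.64 ± 0.03) and ATP5MC2 from 146 and 144 to 125 and 124 (-0.22 ± 0.03). The copies that code for the same mature protein thus fell to unequal degrees, ATP5MC1 the most and already at 1 and 3 days (-0.11 ± 0.03 and -0.34 ± 0.03). ATP5F1A and ATP5F1B, the catalytic head, fell by 0.15 ± 0.02 and 0.31 ± 0.02. ATP5IF1, the inhibitor of the enzyme's reverse reaction, was lower at 1, 3 and 6 days, by 0.21 ± 0.05, 0.29 ± 0.05 and 0.29 ± 0.05.

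Complex I lost transcript in 24 of its 36 nuclear genes at 6 days, while 3 rose and 9 did not pass (median -0.29). Over all genes 36.4% fell and 38.7% rose. NDUFA6, an accessory subunit of the matrix arm, measured 59.4 and 56.7 CPM in DMSO, 48.6 and 49.1 at 3 days and 30.7 and 30.0 at 6 days (-0.94 ± 0.05). NDUFS6, an accessory subunit that binds zinc, went from 25.0 and 24.7 CPM to 14.3 and 12.9 (-0.87 ± 0.07). NDUFB2 (-0.84 ± 0.05) and NDUFB6 (-0.80 ± 0.06) of the membrane arm and NDUFS3 of the catalytic core (-0.81 ± 0.05) fell nearly as far. Those that rose were NDUFA1 (0.27 ± 0.09), a membrane subunit, NDUFS1 (0.16 ± 0.02), which holds iron-sulfur clusters, and NDUFV3 (0.11 ± 0.04). At 1 day 6 complex I genes had fallen and 0 had risen, and at 3 days 9 had fallen and 1 had risen. These falls were near the shares of all genes given above for 1 and 3 days.

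Complex III showed both directions, with 5 falls, 2 rises and 2 genes that did not pass at 6 days. Over all genes 36.4% fell and 38.7% rose. UQCRQ, a small subunit that contacts cytochrome b, fell by 0.61 ± 0.06, and UQCRFS1, the Rieske iron-sulfur protein, by 0.57 ± 0.04. UQCRB, which binds ubiquinone, rose from 49.9 and 50.1 CPM to 71.0 and 72.7 (0.52 ± 0.05). UQCRHL had the clearest course of the complex: 1.72 and 1.64 CPM in DMSO, 2.54 and 2.47 on day 1, 2.96 and 2.68 on day 3 and 9.72 and 9.82 on day 6 (5.80-fold, log2 2.54 ± 0.14, adjusted p = 1.94e-18). UQCRH, the hinge protein from which UQCRHL was copied, measured 94.2 and 95.5 CPM in DMSO and 81.4 in both libraries at 6 days (-0.22 ± 0.04).

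UQCRHL lies at chr1:15807169-15809348 and UQCRH at chr1:46303698-46316776 in hg38. Their coding sequences are shown, for bases 150 to 241 of 276 counted from the A of the start codon, because reads from within them must fall on 1 of 4 differing bases to tell the genes apart. Parts of the messages outside the coding sequence, which may also separate them, were not compared. The substitutions from UQCRH to UQCRHL are G158A, G167A, G231A and G233A, in capitals, and the remaining 272 bases are identical, with a longest shared run of 157 bases. The counts of this pair were divided between the genes by the estimation step of the authors' pipeline and are uncertain.

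UQCRH: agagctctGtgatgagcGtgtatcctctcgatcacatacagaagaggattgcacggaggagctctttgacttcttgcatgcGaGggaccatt
UQCRHL: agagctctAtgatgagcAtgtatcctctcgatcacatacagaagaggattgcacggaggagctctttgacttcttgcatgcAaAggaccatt

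Complex IV, cytochrome c oxidase, had 7 falls and 5 rises among 13 nuclear genes tested at 6 days, beside 36.4% of all genes that fell and 38.7% that rose, so that its rises were at the share over all genes. COX5B (-0.47 ± 0.04), COX5A (-0.44 ± 0.07) and COX6B1 (-0.43 ± 0.06), supernumerary subunits around its core, fell most. COX7C, a small membrane subunit, rose from 87.5 and 86.6 CPM to 114 and 119 (0.42 ± 0.04), after a fall at 1 day (76.4 and 74.0 CPM, -0.21 ± 0.04). COX6C (0.36 ± 0.05), COX7A2 (0.22 ± 0.04) and COX7A2L (0.22 ± 0.04), which joins complexes III and IV, also rose. COX6A1 had 0.03 ± 0.03 and an adjusted p of 0.303.

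Isoforms of complex IV that are typical of other tissues stayed rare. COX4I1 fell slightly at 6 days (-0.24 ± 0.03), from 114 and 115 CPM to 96.1 and 98.7, whereas COX4I2, the form known from lung and hypoxia, was at most 0.352 CPM in any culture. COX6B2, the testis form of COX6B1, had 1 count in each DMSO library and 26 and 14 at 6 days, a ratio of 22.5 with a 95% counting interval of 5.83 to 192. This interval covers counting error only, and no test is given. COX6B2 shares exon bases with a readthrough transcript on its strand. COX7A1, the muscle form of COX7A2, had no counts in cells.

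**Figure D4:**
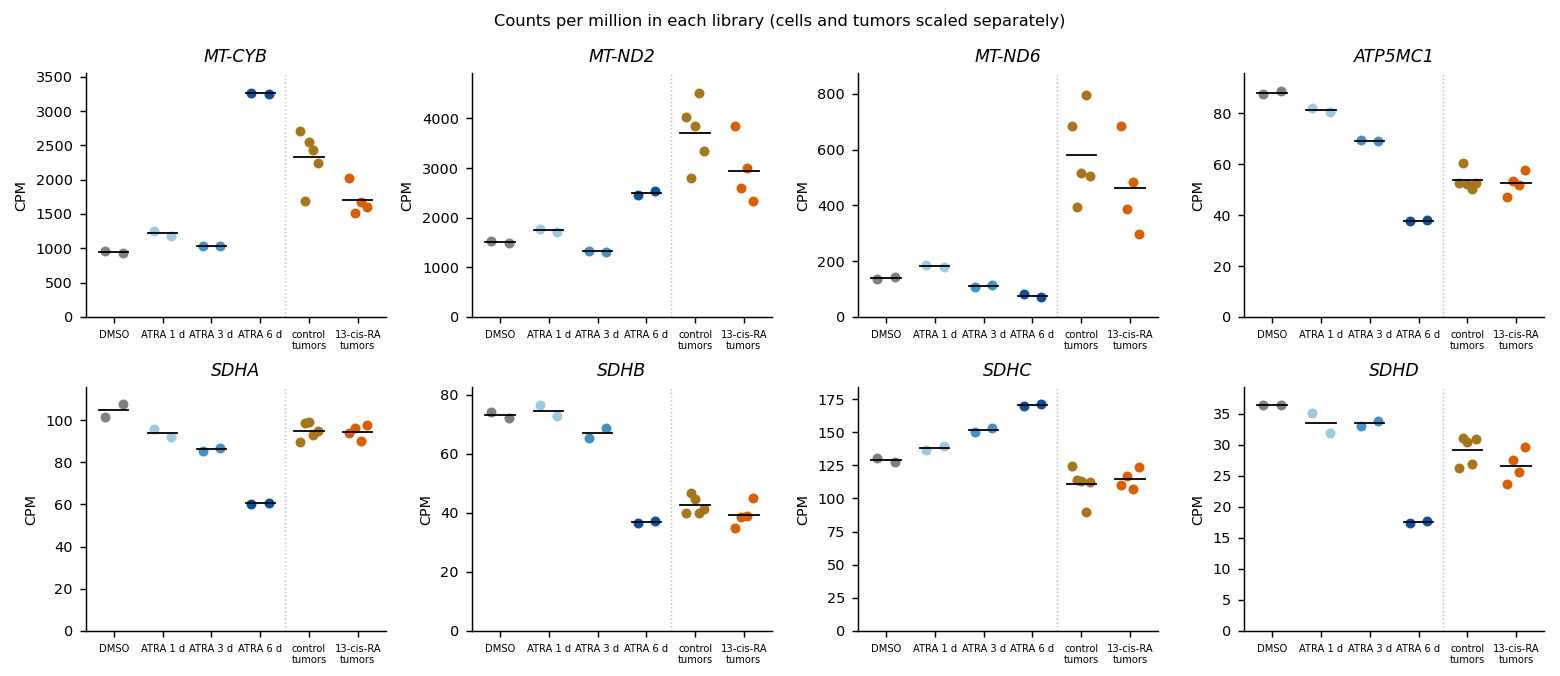
CPM in each library for 8 named genes across the 6 groups, with the group mean, cells and tumors scaled separately. MT-CYB, MT-ND2 and SDHC rise and MT-ND6, SDHA, SDHB, SDHD and ATP5MC1 fall between DMSO and 6 days, and treated and control tumors overlap in each panel.

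Between 3 and 6 days 58 nuclear members fell and 10 rose (median -0.26), beside 34.1% of all genes that fell and 34.0% that rose. Most of the 6-day difference thus arose after day 3. SDHD fell by 0.93 ± 0.06, SDHB and ATP5MC1 by 0.87 ± 0.04 each, NDUFB2 by 0.80 ± 0.05 and NDUFS3 by 0.77 ± 0.05. UQCRHL (1.79 ± 0.13) rose by over 2-fold, as did 12.7% of all genes, and COX7C by 0.48 ± 0.04. COX6B2 had 1 and 3 counts at 3 days, against 26 and 14 at 6 days. NDUFB1, a membrane subunit of complex I that did not pass against DMSO at 6 days, rose here by 0.32 ± 0.08. In the single fit over all libraries the falls numbered 30 and the rises 6.

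Other lists around the chain also held more falls than rises at 6 days, where 36.4% of all genes fell, 12.3% by over 2-fold, and 38.7% rose. These lists were chosen with results known, and their counts are descriptions. Of 44 assembly factors 26 fell and 7 rose at 6 days (median -0.31), led by COA7 (-1.25 ± 0.05), which assembles complex IV, and BCS1L (-1.17 ± 0.06), which inserts the Rieske protein. Of 12 other subunits and carriers 9 fell and 1 rose, CYC1, the cytochrome c1 of complex III, by 1.04 ± 0.04. Of 23 genes for mitochondrial DNA and RNA 16 fell and 4 rose (median -0.52), among them TWNK, the helicase of mitochondrial DNA (-1.29 ± 0.05), TFB2M (-1.25 ± 0.08) and TFAM (-1.15 ± 0.04), which start mitochondrial transcription. These fell in the same libraries in which 11 mitochondrial messages rose.

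Of 11 regulators of mitochondrial biogenesis 10 fell and 1 rose at 6 days, with a median of -1.03 and 6 falls of over 2-fold. The coactivators PPRC1 and PPARGC1B fell by 2.10 ± 0.03 and 1.61 ± 0.06, and the nuclear receptor ESRRG, known to drive oxidative genes, by 2.07 ± 0.04, from 113 ± 1.63 CPM to 26.9 ± 0.219 (SD, n = 2). ESRRG was lower by 0.96 ± 0.04 at 1 day. NRF1 itself fell by 0.55 ± 0.06, from 24.1 ± 0.384 to 16.5 ± 0.677 CPM. Of 19 genes of the tricarboxylic acid cycle 16 fell and 1 rose (median -0.38), with citrate synthase (CS) at -0.50 ± 0.02.

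In tumors, the comparison of 13-cis-RA with untreated controls asked whether the same genes respond in the animal. None of the 83 nuclear and 13 mitochondrial members tested passed over 21098 genes, of which 1.40% rose and 0.218% fell. At an unadjusted p under 0.05 in this test there were 5 nuclear members and 1 mitochondrial, beside 3257 of the 21098 genes. Both are smaller shares than that over all genes. The nuclear median was 0.01 and the mitochondrial -0.32, against -0.01 over all genes. With single tumors left out, the mitochondrial median ran from -0.49 (without RA tumor 1) to -0.18 (without control tumor 4 or RA tumor 4). MT-CYB measured 2715, 1690, 2554, 2437 and 2236 CPM in controls and 2020, 1521, 1671 and 1600 after treatment (-0.45 ± 0.13, adjusted p = 0.108 in edgeR's quasi-likelihood test). Only control tumor 2 fell within the treated range. DESeq2 called it with an adjusted p of 0.0117, the single fit over all libraries with 0.0304, and it also passed without control tumor 2.

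ATP5IF1 was the nuclear member that both of these other fits called. It measured 65.1, 59.6, 62.8, 59.5 and 65.4 CPM in controls and 53.9, 56.3, 54.6 and 50.6 in treated tumors, groups that did not overlap (-0.21 ± 0.06, adjusted p = 0.113), with adjusted p of 0.0440 in DESeq2 and 0.0298 in the single fit. NDUFB2 and NDUFB1 were lower by 0.25 each and NDUFA10 and UQCRC2 higher by 0.19 and 0.15, without passing. The genes with the largest falls in cells showed little: SDHB measured 39.9, 46.8, 44.6, 40.1 and 41.2 CPM in controls and 35.0, 38.6, 39.0 and 44.9 in treated tumors (-0.11 ± 0.08, adjusted p = 0.577), and ATP5MC1 -0.03 ± 0.08. UQCRHL had 0.00 ± 0.12. The spread between tumors (biological coefficient of variation 13.88%) exceeded that between culture libraries (2.65%), and changes of the size seen for most members in cells may not be detectable among them.

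Control tumors differed from DMSO cells in most members, with kit and growth conditions confounded. Of the 13 mitochondrial genes 12 were higher, 7 of them by over 2-fold (median 1.09), beside 42.2% of all genes higher and 31.5% by over 2-fold, and an all-gene median of 0.25. MT-ND5 was 4.37-fold higher (2.13 ± 0.23), MT-ATP8 3.99-fold (1.99 ± 0.41), MT-ND6 3.69-fold (1.88 ± 0.33) and MT-CYB 2.18-fold (1.13 ± 0.14). MT-ND4L, whose reading frame overlaps MT-ND4 by 7 bases, had -0.73 ± 0.31 (adjusted p = 0.0508), whereas MT-ND4 was 2.46-fold higher. It was lower and passed without control tumor 4. MT-ND5, the twelfth of the 13 per kilobase in DMSO at 415 ± 11.9 CPM per kb, reached 2043 ± 423 in control tumors (SD, n = 5), level with MT-CYB at 2039 ± 347. In these per-kilobase values each system is on its own scale, unlike in the fold changes.

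Of 84 nuclear members tested in this comparison, 50 were lower and 18 higher, 12 and 5 of them by over 2-fold (median -0.37). Over all genes 29.5% were lower and 42.2% higher, and 11.4% and 31.5% were so by over 2-fold. With scaling by total counts alone the nuclear median was -0.18 and that of all genes 0.44. COX8A, a small subunit of complex IV, measured 99.3 and 104 CPM in DMSO and 25.7, 35.9, 27.0, 29.5 and 27.4 in control tumors, each system on its own scale, and was 3.92-fold lower on the common scale (-1.97 ± 0.09). NDUFB7 (-1.81 ± 0.09), NDUFA11 (-1.62 ± 0.07), ATP5F1D (-1.49 ± 0.08), UQCR10 (-1.33 ± 0.09) and ATP5MC2 (-1.31 ± 0.06), small subunits of complexes I, III and V, were lower as well. UQCRB (1.14 ± 0.07) and UQCRHL (2.43 ± 0.16) were higher. COX6B2 had 87 counts over the control tumors and 2 over the DMSO libraries, a ratio of 34.9 (95% counting interval 9.37 to 293). COX4I2 was higher by 2.05 ± 0.65. COX6B2, COX4I2 and COX7A1 passed the count filter only through groups other than DMSO. Their place among the 5 is therefore a description. COX7A1 had 21 counts in control tumors and none in DMSO, at least 5.61-fold higher against a floor of 3 counts over the group. It measured 0.286, 0, 0.432, 0.379 and 0.0553 CPM in control tumors 1 to 5.

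The effect of 13-cis-RA in tumors was then set against that of 6 days of ATRA in cells by testing the difference between both effects in 1 fit, although isomer, dose, time and kit differ as well. Among mitochondrial genes 6 had a lower effect in tumors and 0 a higher one (median difference -0.83), beside 21.3% of all genes lower and 19.2% higher and an all-gene median of -0.12. MT-CYB differed by -2.26 ± 0.20 (adjusted p = 2.38e-07), MT-ND3 by -1.15 ± 0.33 and MT-ND2 by -1.08 ± 0.25, the 3 beyond 2-fold. This count was 11 without RA tumor 1, 3 without the first 6-day library and 2 without either of the DMSO libraries. Among 84 nuclear members 38 had a higher effect and 7 a lower one in tumors (median 0.28), and 25 a higher one without the first 6-day library. ATP5MC1 (1.16 ± 0.11), SDHD (0.90 ± 0.13), SDHB (0.85 ± 0.12), NDUFS6 (0.82 ± 0.14) and SDHA (0.75 ± 0.09) had higher effects, and SDHC (-0.38 ± 0.13) and UQCRHL (-2.57 ± 0.21) lower ones. Beyond 2-fold, 1 nuclear member was higher and 2 were lower (UQCRHL and COX6B2, the latter with few counts in cells), against 7.78% and 13.1% of all genes. The place of COX6B2 among them is a description, for the reason given above.

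**Figure D5:**
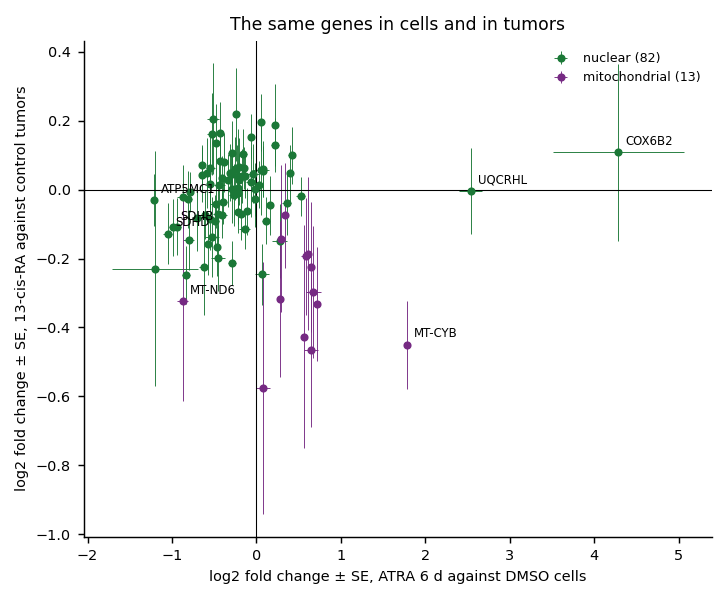
Log2 fold change ± SE of 95 respiratory chain genes after 6 days of ATRA in cells (x axis) and after 13-cis-RA in tumors (y axis), nuclear and mitochondrial genes in different colours. In cells the genes spread from -1.22 to 4.28, in tumors nuclear genes stay near 0 and all 13 mitochondrial genes lie below it without passing the test.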

How the data were processed

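RNA was sequenced from 8 libraries of CHP-134 cells and 9 of xenograft tumors. Per the labels and the submitters' processing notes, reads went through Trim Galore 0.4.4, STAR 2.7.10a on hg38 and RSEM 1.3.3, and the authors deposited RSEM's expected counts per gene, in 1 table for cells and 1 for tumors. RSEM divides reads shared by similar genes by estimation, which matters for copies such as UQCRHL. The annotation release, the strand setting and the treatment of mouse reads were not given in the sources used here. The 92 spike-in sequences of the cell table were all at 0.

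Expected counts were rounded and tested with edgeR 4.0.16 in R 4.3.3 (quasi-likelihood F test, TMM scaling, filter by expression with a minimum count of 10, Benjamini-Hochberg over all genes tested). Cells (20237 genes) and tumors (21098) were fitted apart, and comparisons between them in 1 fit of 17 libraries (25787). The filter left 95, 96 and 97 members. CPM values are TMM-scaled within each fit. A difference beyond 2-fold was counted apart, following the study's rule. Pseudogene symbols were dropped among nuclear genes only; they held 0.07% to 0.15% of the nuclear members' counts. The members, side lists and named genes were chosen with earlier results of these data known. All 13 mitochondrial genes were named, and of nuclear genes those beyond 2-fold, the 4 largest rises and falls per comparison that passed without overlap, and isoform pairs; others named in the text were chosen after their values were seen. Positions and overlaps come from GENCODE v44 (60306 gene IDs matched) and promoters from RefSeq in GRCh38.p14 (69 of 87 nuclear members matched). Replicate numbers did not pair the samples: correlations of deviations between equal numbers were -0.025 to 0.012 in cells and -0.334 to 0.108 in tumors. 1 cell type marker is not reported here and entered no sum. The fits were tested on simulated counts. Alternatives were other scalings, no filter, DESeq2 1.42.0, 1 fit over all libraries, a replicate block and leaving out each library. Depth was 17266558 to 39422897 counts per library.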

Additional observations from a re-analysis of the deposited data

Results flagged for a closer look

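The following differences between the effect of 13-cis-RA in tumors and that of 6 days of ATRA in cells passed edgeR's quasi-likelihood test of the difference itself (log2, effect in tumors minus effect in cells). The list is a part of those that passed. In all, 38 of 84 nuclear members had a higher effect in tumors and 7 a lower one. Of 13 mitochondrial members 6 had a lower one. Over all genes 19.2% were higher and 21.3% lower. Effects were lower in tumors for COX6B2 (-4.17), UQCRHL (-2.57), MT-CYB (-2.26), MT-ND3 (-1.15), MT-ND2 (-1.08), MT-CO2 (-1.0), MT-ND5 (-0.90), MT-CO3 (-0.81), UQCRB (-0.57) and NDUFA1 (-0.46). They were higher in tumors for COX4I1 (0.27), COX6B1 (0.48), ATP5MC3 (0.65), NDUFS6 (0.82), SDHB (0.85), SDHD (0.90) and ATP5MC1 (1.16). COX6B2 had at most 3 counts in a culture library before 6 days, and its value rests on the 6-day libraries. It passed the count filter only through groups other than DMSO, so its place in this list is a description. Isomer, dose, time, library kit and host cannot be told apart in these differences.

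ATP5MC1 in control tumor 2, at 60.4 CPM, stood apart from the other 4 control tumors, which measured 50.2 to 52.8 CPM. It was 1 of 102 sets of tumor values examined for a sample far from the others, where chance alone marks about 1 in 20.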

How the results depend on the processing

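The following counts of members that passed the test moved by over 1.5 times, and the cause was not tested except where named. At 1 day, nuclear members higher went from 2 to 0 under DESeq2, and in 1 fit over all libraries the nuclear members higher and lower and the mitochondrial ones higher were 0 each. At 3 days the count beyond 2-fold lower went from 1 to 0 with no filter, under DESeq2 and in 1 fit over all libraries. DESeq2 called 10 mitochondrial members lower at 3 days in place of 6, and the fit over all libraries called 1 nuclear member higher, 5 lower, and 0 mitochondrial members either way. That fit gave 7 nuclear members higher, 5 mitochondrial higher and 0 lower for 6 days against DMSO, and 6 nuclear higher, 30 lower, 7 mitochondrial higher and 0 lower for 6 days against 3. Its biological coefficient of variation was 10.95%, against 2.65% in cells alone. In treated against control tumors, DESeq2 and the fit over all libraries each called 1 nuclear (ATP5IF1) and 1 mitochondrial (MT-CYB) member lower. With no filter, 1 mitochondrial member was lower in control tumors than in DMSO cells, and the nuclear members with a lower effect in tumors than in cells went from 7 to 3.

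Taken between median levels in place of summed counts, the log2 difference in the mitochondrial to nuclear ratio was 0.41 at 1 day, 1.27 at 6 days, 1.09 between 3 and 6 days and 1.82 between control tumors and DMSO cells, and it turned positive at 3 days (0.18). It stayed within 1 SD without MT-ND6 and the overlapping pairs and in 2 alternatives chosen after seeing the data: without rare isoforms and copies, and with counts of nuclear copies added.

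When each library was left out in turn, the range was 1 to 2 nuclear members higher and 9 to 28 lower at 1 day, and 4 to 10 higher, 13 to 19 lower and 0 to 1 beyond 2-fold lower at 3 days. It was 0 to 1 mitochondrial members lower in treated against control tumors (1 without control tumor 2) and in control tumors against DMSO cells (1 without control tumor 4). For the effect in tumors minus that in cells, the range was 25 to 43 nuclear members higher and 3 to 9 lower, 2 to 11 mitochondrial members lower and 4 to 9 members lower beyond 2-fold, with the highest value of the last pair without RA tumor 1. A replicate block changed none of these member counts by over 1.5 times in cells and left 0 members in treated against control tumors, where it moved the calls over all genes from 296 higher and 46 lower to 28 and 4. The numbers do not pair the samples, and no such fit was made for comparisons across systems. Among genes named singly, 0 changed direction on either side of the threshold.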
